A study of Mus musculus with 9 samples.

Results

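The 3 libraries described here hold the RNA of immortalized mouse podocytes that received a non-targeting control siRNA, out of 9 libraries in the series. They were chosen by their group label alone, and no measured value was used. The cells carry a wild-type genotype label and come from mouse kidney. They were grown with interferon-γ at 33 °C, then held without it at 37 °C for 10 to 14 days, the treatment that makes such lines stop dividing and mature. A lipid reagent, Lipofectamine RNAiMAX, carried in the control oligonucleotide (Silencer Select Negative Control No.1), and cells were lysed 48 h afterwards. The other groups of the study, which received siRNAs against the deubiquitinase gene Usp40, are not analysed here. The labels call the libraries biological replicates and do not state separate cultures, so the spread given below may be partly technical. Neither the clone nor the passage nor an untransfected culture is stated, so every level is that of a transfected culture of this line.

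Podocytes are the epithelial cells that wrap the capillaries of the glomerulus. Their interlocking foot processes are bridged by the slit diaphragm, a junction built around nephrin and the Neph proteins. An actin cortex with synaptopodin and alpha-actinin-4 supports the processes, and integrins anchor them to a basement membrane of laminin and collagen IV. In the kidney, transcription factors such as Wt1, Lmx1b and Tcf21 keep this programme active, whereas cultured lines are known to keep it in part. In bulk RNA, fewer cells expressing a gene and less RNA of it per cell cannot be told apart.

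Levels are given as TPM, a count divided by gene length and scaled to the same total in each library, so that genes can be ranked within a library. Replicates 1, 2 and 3 held 11898321, 10784049 and 12390673 counts assigned to genes, 35073043 in all. At that depth a single count of a 1 kb gene was worth 0.190, 0.229 and 0.196 TPM in replicates 1, 2 and 3. Over the expressed genes the log2 TPM of the libraries correlated at Pearson r = 0.990 for replicates 1 and 2, 0.987 for replicates 1 and 3, and 0.994 for replicates 2 and 3, a description over genes of the same libraries. The chi-square per degree of freedom of the counts lay between 7.14 and 18.4, so no library repeated another. Since a single group was described, no test was made, and a gene is said to lie above another where all 3 of its libraries do.

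A gene was called expressed at 1 TPM or more in every control library. Of 25655 genes in the table, 11074 met this level, 43.2% of all, and 11055 of them are protein-coding in the GENCODE vM39 annotation. Every count of expressed list members given below stands beside this 43.2% of all genes. A further 531 genes reached 1 TPM in some but not every library, and for 10649 genes the count was 0 throughout, which allows up to 3 counts for each over the 3 libraries, counting error only. The median of the mean level was 0.154 TPM over all genes and 28.7 TPM over the expressed genes. A small number of genes held most of the transcripts. The 132 genes with a mean of 1000 TPM or more held 32.3% of all TPM, the 1707 genes between 100 and 1000 TPM held 40.5%, and the 6822 genes between 10 and 100 TPM held 25.8%. Below that, 2703 genes between 1 and 10 TPM held 1.29%, and 3642 genes with counts but under 1 TPM held 0.078%. Put together from the top, 472 genes held 50% of all TPM, with 404, 536 and 478 genes in replicates 1, 2 and 3. The 10 highest genes held 10.7% and the 100 highest 28.8%. Without the mitochondrial genes these shares were 4.89% and 22.2%, and as shares of counts, not divided by length, they were 4.62% and 15.4%.

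**Figure D1:**
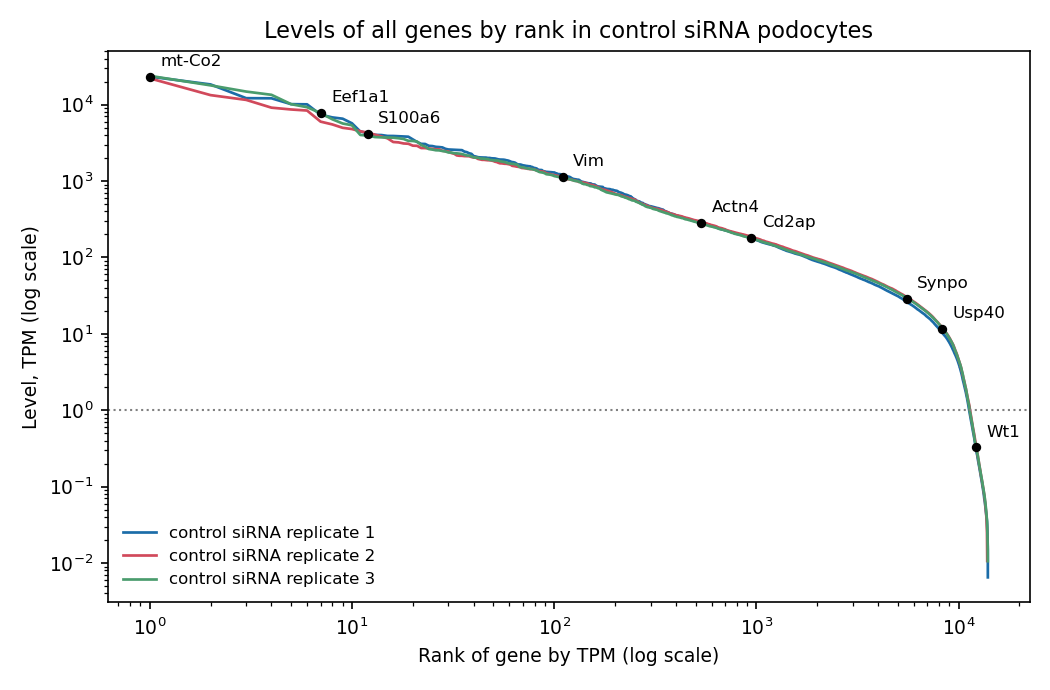
Level of every gene with a count (TPM, log axis) against its rank (log axis), a line for each control siRNA library; black points mark the 3-library means of named genes and the dotted line 1 TPM. The curves lie close together from mt-Co2 at 23064 TPM down to Usp40 at rank 8272 and Wt1 at rank 12218.

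The top of the ranking belonged to energy and protein synthesis. Of the 30 highest genes, 10 are encoded by the mitochondrial genome, and the 13 mitochondrial genes in the table summed to 104790 ± 12900 TPM (SD, n = 3), 10.5% of the total. The cytochrome oxidase subunit gene mt-Co2 stood first with 23282, 22092 and 23818 TPM in replicates 1, 2 and 3 (23064 ± 883, SD, n = 3), above every other gene in every library. Next came the ATP synthase subunit gene mt-Atp6 with 18372, 13312 and 17863 TPM, whose range overlapped that of the oxidase subunit gene mt-Co1 with 12142, 11527 and 14818 TPM. Replicate 2 held the least of each of these transcripts. The mitochondrial share was 10.96%, 9.02% and 11.46% of TPM in replicates 1, 2 and 3, and 4.13%, 3.15% and 4.12% of the counts before division by length. Further members of the top 30 were mt-Co3, mt-Nd1, mt-Cytb, mt-Nd3, mt-Atp8, mt-Nd4 and mt-Nd2, between 11553 TPM for mt-Co3 and 3386 TPM for mt-Nd2. The gene mt-Atp8 shares 43 exon bases with mt-Atp6, so some of their reads cannot be assigned to either alone.

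The highest nuclear gene was Eef1a1, the elongation factor that brings charged tRNA to the ribosome, with 7383, 8366 and 7752 TPM (rank 7). All 81 genes for cytosolic ribosomal proteins in the table were expressed, with a median of 1240 TPM, and they summed to 11.5% of all TPM. Rpl41 led them with 5902 ± 559 TPM, followed by Rpl13, Rpl23a and Rpl19 at 3919 ± 179.8, 3746 ± 170.4 and 3711 ± 152 TPM (SD, n = 3 each). The ranges of Rpl13 and Rpl23a overlapped, as did those of Rpl23a and Rpl19, so their order is not fixed by these libraries. Rps15, Rps3a1, Rplp1 and Rpl6 also stood in the top 30. Among 33 translation factors and further genes listed with them, such as Tpt1 and Btf3, 32 were expressed. Tpt1 lay at 2654 ± 369 TPM, the elongation factor gene Eef2 at 2224 ± 279 and Btf3 at 1039 ± 121 (SD, n = 3 each).

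Outside translation and the mitochondrion, the top 30 held calcium-binding, iron-binding, chromatin and matrix genes. Ptma, which encodes the acidic nuclear protein prothymosin alpha, had 4444, 4789.7 and 3690.2 TPM. S100a6, which encodes a calcium-binding protein, had 4247, 4478 and 3763 TPM and ranked 12 of all genes. Lgals1, a galactoside-binding lectin, had 4017, 3102 and 3343 TPM. The S100 relative S100a11 had 3505, 2031 and 3284 TPM, and its lowest library, replicate 2, lay apart from the rest. Further nuclear members were the actin gene Actg1, the histone variant gene H2az1 with 2533 ± 221 TPM, and Spp1, which encodes the secreted matrix protein osteopontin, with 2867, 2430.2 and 2301 TPM. Spp1 ranked 30 at 2533 ± 297 TPM (SD, n = 3 each), and its range overlapped those of H2az1 and Rpl6.

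A pair of entries in the top 30 are near copies of each other in their coding sequences, which show what short reads could and could not separate there. Ftl1 encodes the light chain of the iron-storage protein ferritin, and its coding sequence differs from that of the entry Ftl1-ps1 at 2 of 549 bases. Both differing bases fall in the stretch printed here, bases 415 to 504 of each coding sequence (GRCm39, from the GENCODE vM39 annotation), and stand in capitals.
Ftl1, chromosome 7, minus strand: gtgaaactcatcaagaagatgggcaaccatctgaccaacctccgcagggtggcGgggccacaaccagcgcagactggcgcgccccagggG
Ftl1-ps1, chromosome 13, plus strand: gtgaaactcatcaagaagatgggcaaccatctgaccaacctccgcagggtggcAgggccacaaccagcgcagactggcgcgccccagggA
The table gives Ftl1 3065, 2698 and 3361 TPM and Ftl1-ps1 2639, 3242 and 2823 TPM, ranges that overlap, with 51.2% ± 4.99 (SD, n = 3) of their sum on Ftl1. Reads of 36 bases that lie within the coding sequence and miss both positions match each entry equally, so the split between the entries is uncertain. The reads were sequenced in pairs, and whether the mate of such a read could place it was not examined. Outside the coding sequence the entries were not compared. Of all 36-base windows of the whole transcripts, 79.7% for Ftl1 and 50.1% for Ftl1-ps1 are found elsewhere in the genome. Their sum was 5943 ± 240 TPM (SD, n = 3). The placing of reads that match more than 1 gene is not described in the sources at hand.

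The same limit was measured for the genes described here by cutting each gene's transcript into windows of 36 bases and asking what share is found elsewhere in the GRCm39 genome. Windows were scanned singly, whereas the reads were paired, so a mate could place some reads that a single window cannot. Over the 100 highest genes the median share was 49.2%, and 50 of them exceeded 50%. For the cytosolic ribosomal protein genes the median was 51.1%, with 41 of 81 above 50%. All windows of mt-Co2 and mt-Atp6 were found a second time in the genome, as were 83.9% of those of Eef1a1 and 86.2% of those of Actg1. In contrast, the 82 podocyte genes had a median of 0, and none exceeded 50%, though Cd2ap had 36.3% and Nck2 34.6%. The order within the top 30 is thus less certain than the order within the podocyte lists. Genes below the top 30 carry the limit too. Of all 1197 genes scanned 114 exceeded 50%, among them Pgam1 with 95.2%, Myl6 with 83.7%, Mif with 82.2% and Hspa8 with 78.9%. The levels of such genes given below are uncertain in the same way.

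Read first were Vim, Actn4, Cd2ap, Nes and Synpo, the markers set beforehand for these cells, all of which were expressed in every library. How far these genes set podocytes apart from other cell types was not tested. Vim (ENSMUSG00000026728, GRCm39 chromosome 2, 13578738 to 13587637, plus strand), the intermediate filament protein of mesenchymal cells and of podocytes, had 1065, 1208 and 1139.7 TPM and ranked 110 of all genes. Actn4 (ENSMUSG00000054808, GRCm39 chromosome 7, 28592673 to 28661765, minus strand), the actin crosslinker alpha-actinin-4, had 252, 281 and 316 TPM and ranked 534. Cd2ap (ENSMUSG00000061665, GRCm39 chromosome 17, 43103842 to 43187556, minus strand), an adaptor between the slit diaphragm and actin, had 151, 210.1 and 180.4 TPM and ranked 946. These 3 genes stood in the same order in every library, with no overlap. Nes (ENSMUSG00000004891, GRCm39 chromosome 3, 87878385 to 87887758, plus strand), an intermediate filament protein of progenitors and podocytes, had 47.7, 93.7 and 81.6 TPM, lowest in replicate 1. Synpo, the actin-associated protein of mature foot processes, had 24.7, 29.8 and 31.8 TPM. Synpo lay below Nes in every library and close to the median of the expressed genes, 28.7 TPM. Usp40 (ENSMUSG00000005501, GRCm39 chromosome 1, 87872841 to 87936273, minus strand), the gene the study targets elsewhere, had 9.72, 11.5 and 13.6 TPM in these control cells from 371, 365 and 503 counts.

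The start regions of the markers Vim, Nes, Actn4 and Cd2ap and of Ppia, which is not a marker, are shown. They differ in a motif of the core promoter, the TATA box, which positions RNA polymerase at some genes. Synpo is not shown, and the genes printed were not drawn by a rule. Each line runs from 40 bases before to 20 bases after the annotated RefSeq start, in the GRCm38.p6 coordinates of the RefSeq table, which is another build than that of the expression table. Capitals mark the letters TATAAA.
Vim, chr2:13574271-13574330, plus strand: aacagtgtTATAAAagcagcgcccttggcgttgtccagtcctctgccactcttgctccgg
Nes, chr3:87971053-87971112, plus strand: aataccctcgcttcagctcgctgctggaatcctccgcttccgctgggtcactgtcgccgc
Actn4, chr7:28962313-28962372, minus strand: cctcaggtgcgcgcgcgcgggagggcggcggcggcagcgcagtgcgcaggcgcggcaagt
Cd2ap, chr17:42876405-42876464, minus strand: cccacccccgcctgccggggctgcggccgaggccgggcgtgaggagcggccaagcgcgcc
Ppia, chr11:6415827-6415886, plus strand: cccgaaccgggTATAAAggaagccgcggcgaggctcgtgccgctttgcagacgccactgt
Vim holds the motif 32 bases before its start. Ppia, a prolyl isomerase gene at 2329 ± 239 TPM (SD, n = 3), holds it 29 bases before. Nes, Actn4 and Cd2ap do not hold these letters in the window, which says nothing of other sequences or of the factor that binds them. The motifs were then counted over genes with a promoter in the RefSeq table, and a gene counted where any of its promoters held the letters. On the gene's strand between 40 and 20 bases before the start, TATAAA was found for 4 of 68 such genes among the 100 highest nuclear genes, 5.88%. The share was 2.57% of 740 nuclear genes ranked below the first 100 and down to 1000. It was 1.09% of 8064 other expressed genes and 5.1% of 8001 genes under 1 TPM in some library. The share over all 16873 nuclear genes with a promoter was 3.08%, so only the first and the last class lay above it. The GC box letters GGGCGG, searched on both strands of the 300 bases around the start, were found for 60.3%, 75.1% and 71.3% of genes with a promoter in the 3 expressed classes, in the same order. For genes under 1 TPM in some library the share was 27.3%. Over all nuclear genes with a promoter that share was 50.6%. The letters CCAAT, searched in the same way, were in 42.6%, 44.1%, 43.5% and 40.9% of the 4 classes and in 42.3% of all nuclear genes with a promoter. Each motif was searched on its own, whether or not its matches overlapped those of another, and a match is a description of sequence, not of binding.

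Across the 3 lists of podocyte genes, 61 of 82 members were expressed, 74.4%, beside 43.2% of all genes in the table. Their median was 18.6 TPM, and 6 members had no count. The lists were drawn up with earlier results of these data known. Just under the level of 1 TPM in every library lay Plce1, a phospholipase, with 0.6, 0.905 and 0.95 TPM, and Sema3g, a secreted semaphorin, with 0.627, 1.31 and 1.25 TPM. Just above it lay Cd80 with 1.13, 1.11 and 1.69 TPM and Apoe with 1.14, 1.94 and 1.27 TPM. Among the members at 0 counts were Nphs1, Ptpro, Kirrel2, Tcf21 and Agtr1a, which goes against the label of a differentiated podocyte for these defining genes. The 5 markers above were expressed, but whether they separate podocytes from other cells was not tested. The cells are called control siRNA podocytes here by their label.

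**Figure D2:**
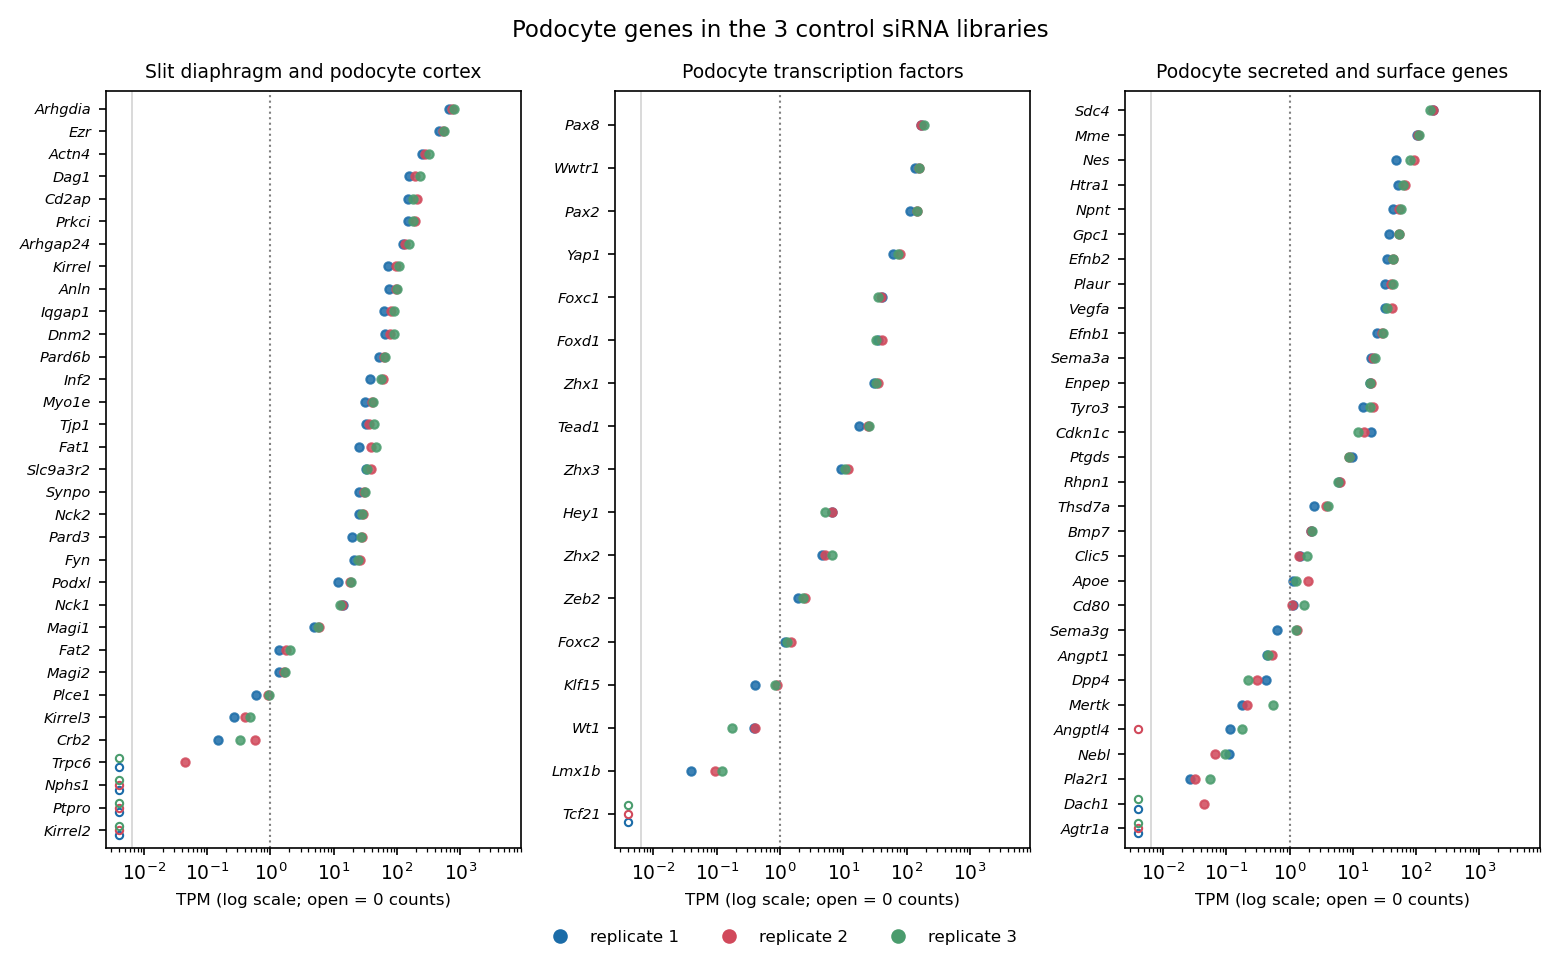
TPM (log axis) of 80 genes of the 3 podocyte lists, a point for each control siRNA library, with open circles left of the grey line for 0 counts and a dotted line at 1 TPM. Most genes have their 3 points close together, from Arhgdia at 738 TPM to Nphs1, Ptpro, Kirrel2, Tcf21 and Agtr1a at 0 in every library.

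In the list of slit diaphragm and cortex genes 26 of 34 were expressed, with a median of 32.2 TPM and a sum of 2967 ± 351 TPM (SD, n = 3). Its members ran from 0 counts to the level of Arhgdia given below. Nphs1 (nephrin), Ptpro (the receptor phosphatase of the podocyte's apical surface) and Kirrel2 had 0 counts in each control library, which allows up to 3 counts of 35073043 for each. Trpc6, the cation channel of the slit, had 1 count in all. Of the Neph family only Kirrel was expressed, with 71.5, 98.1 and 108 TPM, while Kirrel3 had 0.265, 0.4 and 0.479 TPM. Crb2, a polarity protein of the slit, had 0.146, 0.564 and 0.332 TPM from 32 counts, an exact Poisson interval of 21.9 to 45.2 counts at 95%.

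Adaptor, cytoskeletal and polarity genes of the list spanned a wide range. Arhgdia, which holds small GTPases inactive, led the list with 666, 745 and 802 TPM. Ezr, which links membrane proteins to actin, followed with 461, 541 and 554 TPM. Both lay above Actn4 in every library, and Actn4 above the rest. Dag1, the matrix receptor dystroglycan, had 157, 196 and 231 TPM, and its range overlapped that of Cd2ap, whose range overlapped that of the polarity kinase gene Prkci with 152, 195 and 177 TPM. Arhgap24, an inactivator of Rac1, had 137 ± 14.1 TPM (SD, n = 3). A group of actin and membrane-traffic genes came next. Anln had 90.2 ± 13.7, Iqgap1 77.9 ± 14.4, Dnm2 77.2 ± 11.7, the formin gene Inf2 51.1 ± 11.3 and the myosin gene Myo1e 37.7 ± 5.77 TPM (SD, n = 3 each). Junction scaffolds followed, with Tjp1 (ZO-1) at 37.7 ± 5.81, Slc9a3r2 (NHERF2) at 35.6 ± 3.43 and Pard3 at 24.8 ± 4.47 TPM (SD, n = 3 each). Pard6b, a partner of Pard3, lay at 59.6 ± 6.93 TPM, and the protocadherin gene Fat1 at 36.6 ± 10.9 TPM (SD, n = 3 each). From Kirrel down to Slc9a3r2, neighbours in the order of means overlapped in range, except Dnm2 and Pard6b. Synpo (ENSMUSG00000043079, GRCm39 chromosome 18, 60727045 to 60793214, minus strand) stood next below Slc9a3r2, with no overlap. The signalling adaptors Nck2 and Nck1, which bind phosphorylated nephrin, had 25, 29.6 and 28.1 TPM and 14.1, 13.5 and 12.6 TPM, with no overlap, and the kinase Fyn had 23.6 ± 2.67 TPM (SD, n = 3). Podxl, the sialomucin of the podocyte's apical membrane, had 11.7, 18.3 and 18.8 TPM. The scaffolds Magi1 and Magi2 had 4.94, 5.91 and 5.74 TPM and 1.37, 1.65 and 1.68 TPM, the lowest expressed members with Fat2 at 1.74 ± 0.338 TPM (SD, n = 3).

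Among 18 podocyte transcription factors 14 were expressed, with a median of 14.0 TPM. Those of the early nephron and of the Hippo pathway stood first. Pax8 had 167, 167 and 187 TPM and Pax2 112, 148 and 144 TPM, both of which act in the forming nephron, and Pax8 lay above Pax2 in every library. The Hippo effectors Wwtr1 (TAZ) and Yap1 had 138, 159 and 158 TPM and 60.2, 78.1 and 74 TPM, and their DNA-binding partner Tead1 had 17.8, 25 and 25.7 TPM. The forkhead genes Foxc1 and Foxd1 lay at 38.9 ± 2.99 and 36.4 ± 4.12 TPM (SD, n = 3 each) with overlapping ranges, and Foxc2 at 1.33 ± 0.167 TPM (SD, n = 3). The Zhx repressors Zhx1, Zhx3 and Zhx2 had 33.2 ± 2.62, 10.6 ± 1.41 and 5.43 ± 1.11 TPM (SD, n = 3 each). Hey1, a Notch target, and Zeb2, a zinc finger repressor, had 6.1 ± 0.864 and 2.25 ± 0.292 TPM (SD, n = 3 each). Wt1, the factor most used to name podocytes, had 7, 6 and 3 counts, a level of 0.326 TPM with an exact Poisson interval of 0.186 to 0.529 at 95%. Lmx1b had 6 counts over the 3 libraries, Klf15 0.408, 0.902 and 0.843 TPM, and Tcf21 0 counts.

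Of 30 podocyte genes for secreted and surface proteins 21 were expressed, with a median of 7.55 TPM. The heparan sulfate carrier Sdc4 led with 186, 186 and 165 TPM, above the peptidase gene Mme (neprilysin) with 102, 108 and 113 TPM. Nes came next, and its range overlapped that of the secreted protease gene Htra1 with 51.7, 65.7 and 61.6 TPM. Npnt (nephronectin, a ligand of an alpha 8 integrin) had 51.7 ± 7.84 TPM, the glypican gene Gpc1 48.1 ± 9.01 TPM, and the urokinase receptor gene Plaur 38.8 ± 5.79 TPM (SD, n = 3 each). From Nes down to Vegfa each gene overlapped the next in range. Among signals sent to neighbouring cells, Vegfa, which maintains glomerular capillaries, had 32.6, 41.7 and 35.2 TPM. Ephrins Efnb2 and Efnb1 had 40.8 ± 5.14 and 27.9 ± 2.97 TPM, and the semaphorin gene Sema3a 20.9 ± 1.57 TPM (SD, n = 3 each). Angpt1, the ligand of the endothelial receptor Tek, was under the level with 0.445, 0.537 and 0.46 TPM. Enpep and Tyro3, a peptidase and a receptor kinase, had 19 ± 0.487 and 18.2 ± 3.29 TPM (SD, n = 3 each). Cdkn1c, the inhibitor that marks podocytes out of the cell cycle, had 19.3, 14.8 and 12.2 TPM. Ptgds, Rhpn1, Thsd7a, Bmp7 and Clic5 lay between 9.02 TPM for Ptgds and 1.58 TPM for Clic5. The targets of antibodies in membranous nephropathy differed in level, since Thsd7a had 2.41, 3.73 and 4.01 TPM and Pla2r1 4 counts in all. Dpp4, Mertk, Nebl, Angptl4 and Dach1 were under 0.5 TPM in mean, and the angiotensin receptor gene Agtr1a had no count.

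The basement membrane was described through 22 genes, of which 13 were expressed, 59.1% beside 43.2% of all genes, with a sum of 1144 ± 272 TPM (SD, n = 3). Col18a1, a heparan sulfate collagen, had 209.7, 327 and 339 TPM and the proteoglycan gene Agrn 88.9, 158 and 161 TPM, both lowest in replicate 1. Collagen IV chains form alternative networks, and the chains Col4a3 and Col4a4 of the mature glomerular network were nearly without reads. Col4a1 and Col4a2 had 94.6, 135 and 132 TPM and 86, 125 and 138 TPM and together with Col4a5 held nearly all collagen IV reads per length, at 40.5%, 38.8% and 20.3% of the family. Col4a3 and Col4a4 had 28 and 83 counts, or 0.227 and 0.568 TPM. The laminin alpha and gamma genes showed the same uneven use. Lama5 held 98% of the alpha chain TPM, Lamc1 92.7% of the gamma chains, and the beta chains were divided between Lamb1 at 57.5% ± 1.55 and Lamb2 at 41.5% ± 1.54 (SD, n = 3 each). Lamb2 encodes the beta chain of the mature glomerular laminin and Lamb1 that of the earlier form. Nid1, a linker of the network, had 0.436, 0.489 and 0.74 TPM.

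Integrins join this matrix to the cell, and 15 of 26 of their genes were expressed, 57.7% beside 43.2% of all genes. Itgb1 had 682, 788 and 741 TPM, 79.3% of the beta chain TPM, and Itgb5 143, 191.99 and 183 TPM. Among alpha chains Itga3, the podocyte's laminin-binding partner of Itgb1, stood first with 102, 138 and 149 TPM, 40.9% ± 1.7 (SD, n = 3) of the family. Itgav followed at 61.4 ± 5.28 TPM (SD, n = 3), below Itga3 in every library, and its range overlapped that of Itga5. Of 30 focal adhesion adaptor genes 22 were expressed. Csrp1 had 321, 331 and 331 TPM, Bcar1 (p130Cas) 214, 281 and 270.4 TPM and Fermt2 (kindlin-2) 143, 148 and 148 TPM. The ranges of these 3 did not overlap. The kinase-like adaptor gene Ilk had 128 ± 3.19 TPM (SD, n = 3), but 77.4% of its annotated exon bases overlap Taf10 on the opposite strand, and without a stated use of strand in counting their reads cannot be told apart.

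Actin and tubulin genes were dominated by a few isoforms. Of 6 actins, Actg1 with 2563, 2703 and 2519 TPM and Actb with 2801, 2491 and 2256 TPM held 50.5% and 48.8% of the TPM, and their ranges overlapped. The smooth muscle gene Acta2 had 26.4, 31.9 and 34.4 TPM, and Actc1 and Actg2 had no count. Myl6, a myosin light chain gene, had 786, 766 and 709 TPM, and Tpm4 657, 718 and 670.2 TPM, 44.6% of the tropomyosins. The isoform shares of the crosslinkers and motors were uneven too, with Actn4 at 71.5% ± 0.706 of the alpha-actinins, Myh9 at 78% ± 1.38 of the non-muscle myosins and Flna at 62.4% ± 0.666 of the filamins (SD, n = 3 each). The list of genes that turn actin over was led by 3 members. Tmsb10 and Pfn1, which bind actin monomers, had 1739, 1572 and 1632 TPM and 1645, 1582 and 1519.8 TPM, and Cfl1, which severs filaments, had 1314, 1430.2 and 1288 TPM. All together, 41 of 46 genes of that list were expressed. Tuba1b held 58.4% of alpha tubulin with 1893, 1830.3 and 2019.8 TPM, and Tubb5 52% of beta tubulin with 1153, 1162 and 1218 TPM. Of the windows of Tuba1b, Tuba1a and Tuba1c, 44.6%, 69.8% and 56.6% are found elsewhere in the genome. For Tubb5 the share is 4.36%, but for Tubb4b it is 70.5%. It is 86.2% for Actg1, 32.1% for Actb, 66.5% for Tpm3 and 30.8% for Tpm4. The split of TPM within the tubulins, actins and tropomyosins is thus uncertain.

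**Figure D3:**
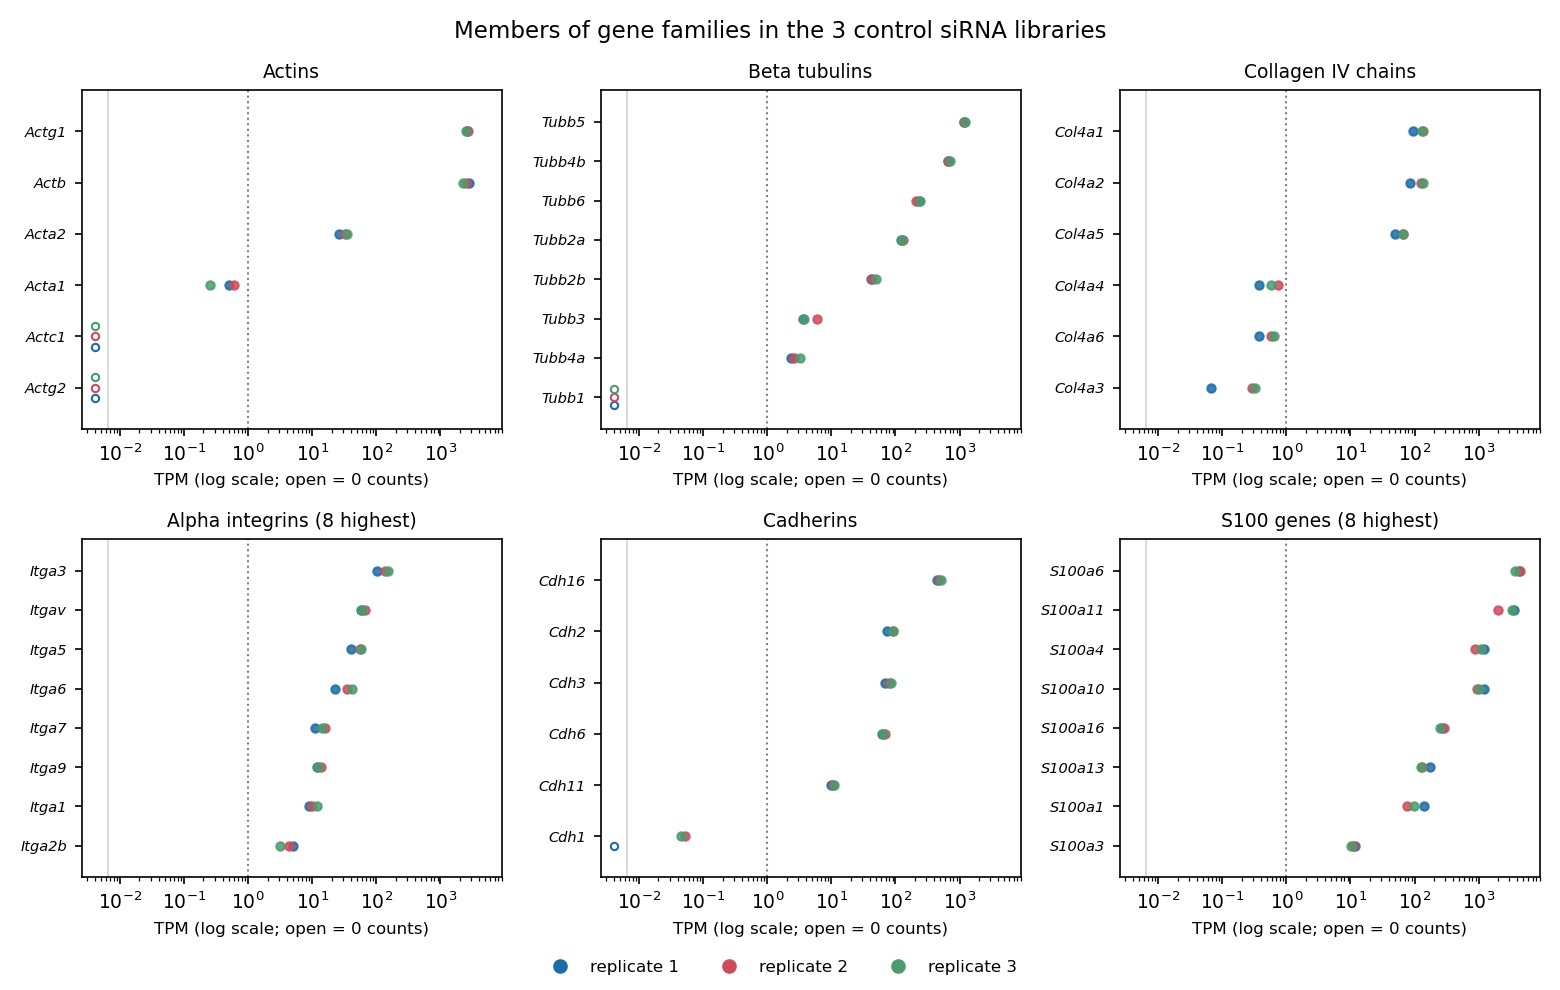
TPM (log axis) of the members of 6 gene families, a point for each control siRNA library; open circles left of the grey line mark 0 counts and the dotted line 1 TPM. Actg1 and Actb overlap at the right of their panel, Col4a1, Col4a2 and Col4a5 stand apart from the other collagen IV chains, and Cdh16 stands above the other cadherins.

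The intermediate filament list mixed mesenchymal and epithelial members. Vim, Lmna with 340.3, 419 and 396 TPM, Krt8 with 220.1, 232 and 257 TPM and Lmnb1 with 118, 166 and 141 TPM were its highest members, and 11 of 25 genes were expressed, 44%, near the 43.2% of all genes. Krt8 is normally paired with Krt18 in simple epithelia, but Krt18, Krt19, Krt14 and Krt17 had no count in any library. Of the windows of Krt8, 59.9% are found elsewhere in the genome, against 6.42% for Krt18 and 0% for Krt19, so the level of Krt8 is uncertain, and the part of gene copies in either value was not tested. Among cadherins, Cdh16, a cadherin of kidney tubules, had 441, 472 and 505 TPM, 66.5% of the TPM of the 6 cadherins compared. Cdh2 (N-cadherin), Cdh3 (P-cadherin) and Cdh6 held 11.9%, 10.9% and 9.17%, while Cdh1 (E-cadherin) held 0.00433%. The catenin genes Ctnnb1 and Ctnna1 had 343, 365 and 355 TPM and 284, 333 and 332 TPM.

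Markers of other kidney and glomerular cells were then read in the same libraries. Endothelial genes had few reads, with 3 of 15 expressed, 20% beside 43.2% of all genes, and a sum of 9.48 ± 1.69 TPM (SD, n = 3). Cdh5, Emcn, Tie1, Cldn5 and Sox17 had 0 counts, and the highest member, Ehd3, had 2.96, 4.19 and 5.31 TPM. Eng was at 2.25 ± 0.267 TPM (SD, n = 3) and shares 11% of its exon bases with Fpgs on the opposite strand. Of 19 immune and blood genes 3 were expressed, 15.8% beside 43.2% of all genes, and 9 had no count. Csf1r had 20.9, 26.6 and 25.4 TPM, of whose exon bases 19.8% overlap Hmgxb3 on the opposite strand, and Cd68 had 22.6, 12.4 and 17.3 TPM. Of 13 mesangial markers 6 were expressed, 46.2%, near the 43.2% of all genes. Sox4 had 95.3, 116 and 87.1 TPM, Tagln 28.3, 35.2 and 30.2 TPM and Pdgfrb 13, 15.2 and 17.3 TPM, whereas Ren1, Cspg4 and Art3 had 0 counts.

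Parietal, fibroblast and tubular markers each summed to more TPM than the endothelial, immune or mesangial list. Of 13 parietal epithelial genes 9 were expressed, 69.2% beside 43.2% of all genes, and the list summed to 1525 ± 103 TPM (SD, n = 3). Its members Krt18 and Krt19 had 0 counts, Prom1 had 3 counts in all and Scel had a mean of 0.793 TPM. The scaffold gene Akap12 had 442, 576 and 614 TPM and the tetraspanin gene Cd9 348, 334 and 275 TPM, and Krt8, Pax8 and Pax2 belong to this list as well as to those above. Of 17 tubular genes 3 were expressed, 17.6%, below the 43.2% of all genes, but the sum of the list was 731 ± 58.9 TPM (SD, n = 3). Cdh16 and the water channel gene Aqp1, with 219, 242 and 266 TPM, made up most of it, and the endocytic receptor gene Lrp2 had 10.1, 16 and 16.4 TPM. Calb1, Pvalb and Aqp2 had no count. Of 15 fibroblast genes 7 were expressed, 46.7%, also near the 43.2% of all genes, with a sum of 1211 ± 153 TPM (SD, n = 3). S100a4 led them with 1218, 891 and 1087 TPM and made up most of that sum. Twist2 had 64.2, 71.8 and 71.9 TPM and Twist1 31, 35.4 and 28.8 TPM, while Thy1 and Fap had 0 counts. Whether these transcripts came from the same cells as the podocyte genes was not tested.

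**Figure D4:**
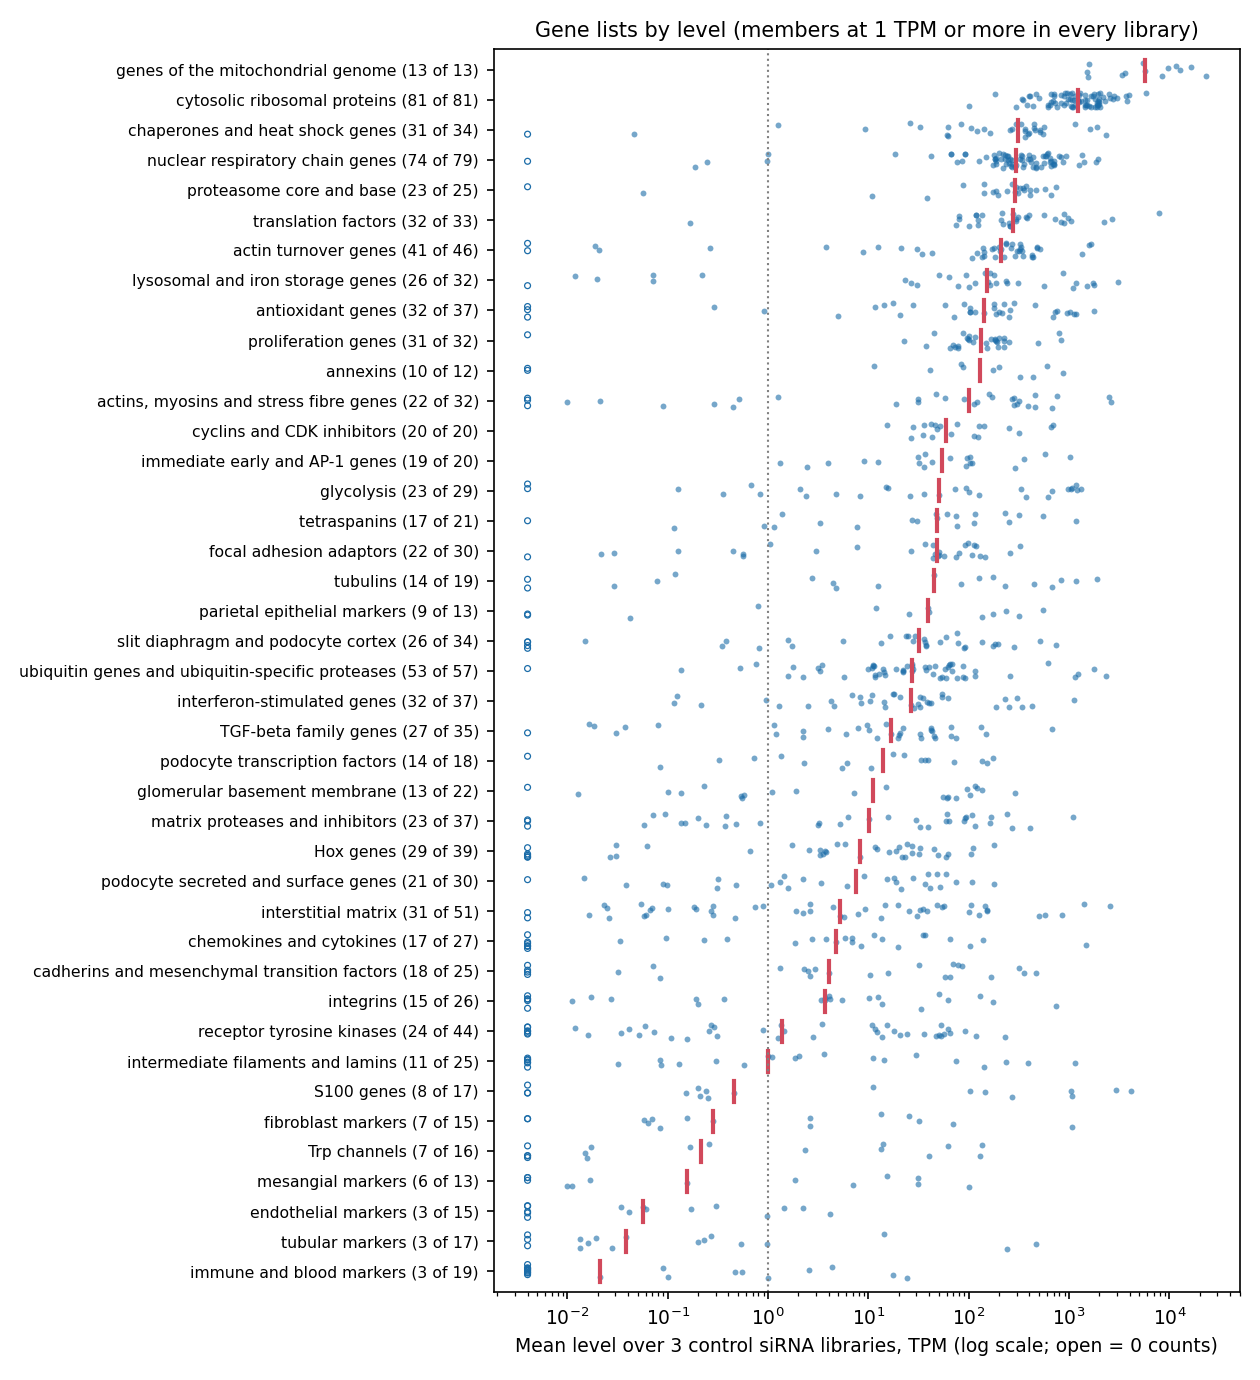
Mean level of every gene of 41 lists over the 3 control siRNA libraries (TPM, log axis), a point for each gene, open circles at the left for 0 counts, red bars for the median of a list and a dotted line at 1 TPM. The brackets give the members expressed of those in the table; medians run from 5714 TPM for the genes of the mitochondrial genome to 0.0209 TPM for the immune and blood markers.

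Genes of cell division were expressed after the 10 to 14 days at 37 °C. Of 32 proliferation genes 31 were expressed, 96.9% beside 43.2% of all genes. The median of the list was 132 TPM, beside 28.7 TPM over all expressed genes. The replication clamp gene Pcna had 935, 812 and 759.6 TPM, the microtubule regulator Stmn1 836, 883 and 654 TPM, the chromatin protein gene Hmgb2 488, 528 and 455 TPM and the helicase subunit gene Mcm7 225, 271 and 252 TPM. Mki67, the gene for the proliferation antigen Ki-67, which was named after its values were seen, had 55.6, 82.2 and 98.3 TPM. Ccna1 had no count. Inhibitors of the cycle were present in the same libraries. Cdkn2a, which encodes the p16 and p19 tumour suppressors, had 683, 748 and 625.41 TPM and Cdkn1a 319, 326 and 312 TPM, with the kinase gene Cdk4 at 664, 699 and 633 TPM and Trp53 at 251, 241 and 256 TPM. The ranges of Cdkn2a and Cdk4 overlapped. All 20 genes of the cyclin and inhibitor list were expressed, and Ccnd3 held 64.4% ± 4.68 (SD, n = 3) of the D-type cyclin TPM.

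Protein quality control was well represented. Among 57 ubiquitin genes and ubiquitin-specific proteases 53 were expressed, with a median of 27.1 TPM. The polyubiquitin gene Ubb had 2535, 2138 and 2310.3 TPM, the ubiquitin fusion gene Rps27a 1418, 1169.9 and 1132 TPM, and Hint1, a nucleotide hydrolase that the list also holds, 1259, 1059 and 1085 TPM. Against these, Usp40 lay at 11.6 ± 1.95 TPM (SD, n = 3), with each library below the list's median. Of 25 proteasome genes 23 were expressed, and Psmb4 led with 771, 777 and 684 TPM. The chaperones Hsp90ab1 and Hspa8 had 1651, 2109.9 and 1967 TPM and 1597, 1561 and 1643 TPM, and the endoplasmic reticulum chaperone gene Calr 1054, 1243 and 1147 TPM. Lysosomal and iron genes other than ferritin light chain were led by Fth1 with 1856, 1789 and 1678 TPM, Lamp1 with 1769.9, 1666 and 1772 TPM and Psap with 1299, 1681 and 1496 TPM.

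Energy and redox genes of the nucleus followed the mitochondrial transcripts. Of 79 nuclear respiratory chain genes 74 were expressed, with a median of 297 TPM and a sum of 3.32% of all TPM. Atp5b, the catalytic beta subunit of ATP synthase, had 1909, 2060.2 and 1888 TPM and Cox4i1 2028, 1853 and 1713 TPM, ranges that overlap. In glycolysis 23 of 29 genes were expressed, with Pgam1 at 1308, 1346 and 1301 TPM, Eno1 at 1155, 1256 and 1222 TPM, Aldoa_1 at 1281, 1109 and 1156 TPM and Tpi1 at 1146, 1046 and 1042 TPM. The antioxidant list had 32 of 37 members expressed. Sod1, the cytosolic superoxide dismutase, had 1793, 1869 and 1678 TPM, above Gstp1 with 1232, 1232 and 1061 TPM and Gpx4 with 1212, 1026 and 1082 TPM.

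Secreted matrix and signalling genes completed the profile. Of 51 interstitial matrix genes 31 were expressed, 60.8% beside 43.2% of all genes. Spp1 was followed by Sparc, a collagen-binding protein gene, with 1335, 1444 and 1413 TPM, the Hippo target Ccn1 with 1044, 776 and 705 TPM and the collagen-folding isomerase gene P4hb with 514, 629 and 577 TPM. Among fibrillar collagen genes, named here after their values were seen, Col1a2 and Col3a1 had 23 and 6 counts in all, whereas Col1a1 was expressed. The protease Ctsd and the inhibitor Timp2 led the list of matrix proteases, at 1017, 1185 and 1097 TPM and 361, 433 and 429.7 TPM. Annexins, which bind membranes in the presence of calcium, were expressed in 10 of 12 cases, with Anxa2 at 842, 903 and 859 TPM and Anxa5 at 640.5, 629.8 and 555 TPM. Of 37 interferon-stimulated genes 32 were expressed. B2m, the light chain of class I molecules, had 1391, 947 and 1017 TPM, highest in replicate 1, and Ifitm2 had 543, 287 and 449 TPM. The cytokine gene Mif had 1605, 1324 and 1479 TPM and the chemokine gene Ccl2 159, 131 and 128 TPM, whereas Il1b, Il6, Tnf, Ccl3, Ccl4 and Cxcl2 had no count. Gdf15, a stress-induced ligand of the TGF-beta family, had 773, 649 and 603 TPM.

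The spread between the libraries was then described over the 8661 genes with a mean of at least 10 TPM. Their median coefficient of variation was 9.8%, and the median ratio of the highest to the lowest library was 1.21. In 691 genes, 7.98%, that ratio exceeded 1.5, and in 43 genes it exceeded 2. Without replicate 1 the count above 1.5 was 40, and without replicate 3 it was 376. Of the 691 genes, 610 were lowest in replicate 1 and 434 were highest in replicate 3. These genes were long, with a median counted length of 5955 bases beside 3325 bases over all 8661 genes. The deviation of a library from the mean followed gene length in general. In replicate 1 the median log2 ratio of its TPM to the 3-library mean was 0.06 in the shortest of 5 length classes and -0.23 in the longest. In replicate 3 it was -0.06 and 0.11, and in replicate 2 it was 0.00404 and 0.10. As a description over the 8660 of these genes with counts in every library, Spearman's rho of that deviation with length was -0.61, 0.316 and 0.493 in replicates 1, 2 and 3. Long genes named above show the same order, as Agrn, Fat1, Col18a1 and Nes were lowest in replicate 1. What made replicate 1 differ was not tested.

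**Figure D5:**
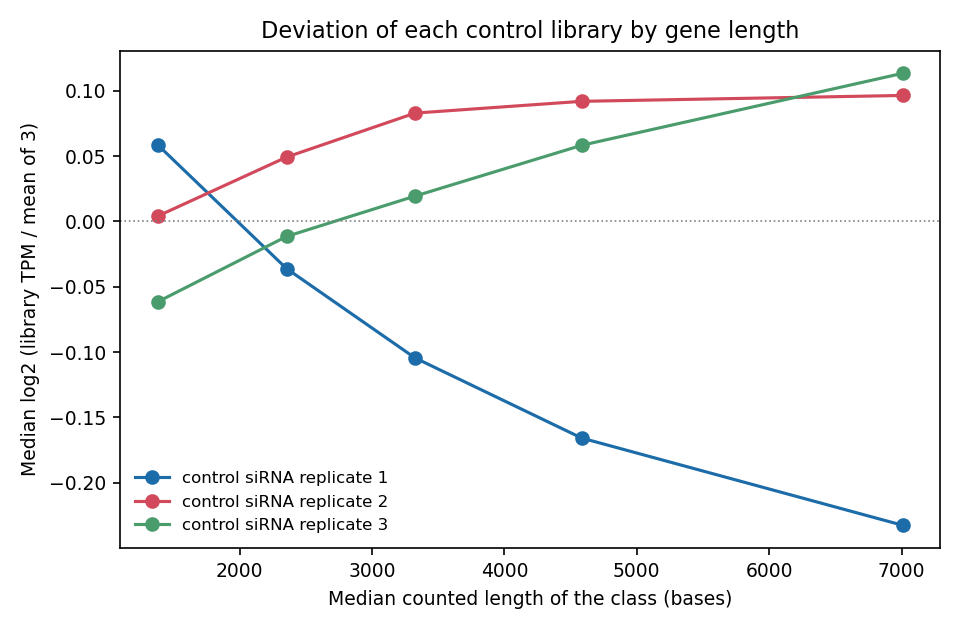
Median log2 ratio of a library's TPM to the mean of the 3 control siRNA libraries (y axis) in 5 classes of genes by counted length (median length in bases, x axis), for genes with a mean of at least 10 TPM. Replicate 1 runs from 0.06 in the shortest class to -0.23 in the longest, while replicates 2 and 3 lie above 0 in the longest class.

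The 10 most variable genes of this set included several that share exons with a neighbour on the same strand. Rps27rt, a copy of a ribosomal protein gene, had 0, 45.3 and 13.6 TPM, from 0, 74 and 26 counts, and 92.0% of its windows are found elsewhere. Pagr1a had 10.2, 25.5 and 0.549 TPM and shares 82.2% of its exon bases with Gm42742. Gm20458 had 2.08, 45.3 and 20.3 TPM, and it shares exon bases with Dbndd2 and Sys1. Gm28036, which overlaps Cpne1 and Rbm12, had 1.76, 10.5 and 18.9 TPM. Srcap, a chromatin remodeller gene, had 3.01, 10.2 and 16.8 TPM and shares 61% of its exon bases with Gm42715, and Zbed6, with 4.2, 13.9 and 16.9 TPM, shares 37.7% with Zc3h11a_1. For Gm2296, with 36.5, 23.2 and 7.54 TPM, 85.2% of windows are found elsewhere. Nnt_1, the proton-pumping transhydrogenase gene, had 6.74, 8.39 and 21.1 TPM, highest in replicate 3. Ankrd52 had 29.7, 77.5 and 89.3 TPM, lowest in replicate 1.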

How the data were processed

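RNA of the 3 control siRNA libraries was selected by poly(A), made into strand-specific libraries from 1250 ng with 12 PCR cycles and sequenced as paired 36 bp reads in batch 1, per the labels' protocols. Per the submitters' processing notes, GRCm39, DESeq2 and CLC Genomics Workbench 23.02 were used; the role of DESeq2, the annotation release, multi-read handling and use of strand in counting are not stated. The authors deposited counts per gene, RPKM and TPM, the last equal to RPKM rescaled to the same total, per the file headers and values. Their scaled CPM, a signal column, was deposited but used nowhere in the results. All per-sample columns were mapped, and 0 remained unmapped.

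TPM was summarised as mean and SD with Python 3.11.15, pandas 2.3.3 and numpy 2.4.6. TMM factors came from edgeR 4.0.16, and overlaps from bedtools 2.31.1. The steps were tested on simulated data. Genes and the 42 lists were chosen with earlier results of these data known. Of 1246 list entries, 1227 had a row, 19 of them through the GENCODE vM39 symbol of their ID, and the 17 long noncoding RNAs and 2 further entries are not analysed here. The text names the 30 highest genes, the 4 highest of each list, any member of the podocyte lists, 5 markers, Usp40 and the 10 most variable genes; other family members, overlapping neighbours and markers at or near 0 were named after their values were seen. No molecular identifiers are named, so PCR copies are not independent molecules, and intervals and limits cover counting error only. A few genes that the rule would name are left out of the text. Alternatives in detection level, unit, scaling and libraries were tried.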

Additional observations from a re-analysis of the deposited data

How the results depend on the processing

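The number of expressed genes ranged from 9605 at a level of 5 TPM to 11538 at 0.5 TPM, was 10368 with RPKM at the same level and 11382 with at least 10 counts in every library, and stayed within 1.5 times 11074 under every alternative tried. Leaving out replicate 1, 2 or 3 in turn gave 11203, 11134 and 11151 genes. Of 368 recounts of the lists, 362 stayed within 1.5 times. The exceptions were immune and blood markers, with 5 expressed at 0.5 TPM, 5 without mitochondrial genes and between 3 and 5 without a replicate (5 without replicate 3), integrins, with 9 at 5 TPM, and endothelial markers, with 0 at 5 TPM and 1 with RPKM. The genes holding 50% of TPM numbered 1175 when counts were not divided by length, since long genes then count for more, were 652 without mitochondrial genes, and lay between 440 and 508 without a replicate. The median level of the 254 named genes was 169 TPM, 157 TPM without the mitochondrial genes, which are then missing from it, and between 162 and 175 TPM without a replicate. Without mitochondrial genes the levels of nuclear genes were 11.7% higher, and 121 levels moved by more than their SD. TMM factors moved no named level by more than 1.26%. The 691 variable genes were 141 at a mean of at least 50 TPM, 43 at a ratio over 2, 601 with TMM factors, and between 40 and 518 without a replicate. They were 40 without replicate 1 and 376 without replicate 3, so replicate 1 decides most of that count; the cause was not tested. No paired analysis was possible because a single group was described and no test was made.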

Other observations

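Position genes and receptors not described above were also read in the control siRNA libraries. Of 39 Hox genes, which set identity along the body axis, 29 were expressed. Hoxb9 had 163, 185 and 189 TPM in replicates 1, 2 and 3, Hoxc10 116, 111 and 105 TPM, Hoxb7 110.2, 111 and 96.5 TPM and Hoxb6 56, 66.1 and 63.3 TPM. Hoxb9 lay above the others in every library, and the ranges of Hoxc10 and Hoxb7 overlapped. By cluster, the B genes summed to 487 TPM, the C genes to 218 TPM, the A genes to 175 TPM and the D genes to 40.3 TPM. Hoxa11, Hoxd1, Hoxd10, Hoxd11 and Hoxd12 had no count.

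Among 44 receptor tyrosine kinase genes 24 were expressed, 54.5% beside 43.2% of all genes. Axl, the receptor of Gas6, had 191.75, 245 and 246 TPM, the collagen receptor gene Ddr1 102, 123 and 129 TPM, the Wnt receptor gene Ryk 86, 101 and 85.5 TPM and the ephrin receptor gene Epha2 50.8, 71.3 and 72.3 TPM. Of 16 Trp and mechanosensitive channel genes 7 were expressed, 43.8%, near the 43.2% of all genes, with Trpv4 at 119, 139 and 148 TPM, Pkd2 at 114, 145 and 133 TPM, Piezo1 at 40.7, 67.1 and 80.2 TPM and Trpm7 at 32.1, 41.7 and 45.6 TPM, while Trpc4, Trpc7, Trpc2 and Trpv6 had no count. Immediate early genes were expressed in 19 of 20 cases. Jund had 932, 1120.2 and 1001 TPM, and Fos had 163, 80.5 and 81.8 TPM, highest in replicate 1.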
